A study of Homo sapiens with 9 samples.

Results

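GTSF1, gametocyte specific factor 1, was followed through 6 single-cell RNA libraries of U2OS cells, as 1 gene (ENSG00000170627) of the 36601 measured. It was selected on its level, the share of cells with a transcript and the deposited kinetic constant, which went from high to near 0 between libraries. Those values are therefore given as a description, with no test. U2OS is a human osteosarcoma line, and its cells here carried RPB1, the largest subunit of RNA polymerase II, fused at its N-terminus to HaloTag, a self-labelling enzyme tag, or to Dendra2, a photoconvertible fluorescent protein. The C-terminal domain (CTD), the repeated tail of RPB1, had 25, 52 or 70 repeats (25R, 52R and 70R), 52 being the human number. The 6 groups were HaloTag 25R, HaloTag 52R, HaloTag 70R, Dendra2 25R, Dendra2 52R and Dendra2 70R, with 1 library each. All of them shared α-amanitin, an RNA polymerase II inhibitor, at 1 µg per ml for 6 days. The labels do not say how many clones a line held. HaloTag libraries went through 2 sequencing runs and Dendra2 libraries through 1, so tag and sequencing cannot be told apart.

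GTSF1 is a small protein with paired CHHC zinc fingers that works in the piRNA pathway of the germ line. There, PIWI proteins loaded with short guide RNAs silence transposons, and GTSF1 acts as a partner that lets PIWI proteins cleave their targets. It is best known from testis and ovary, and somatic tissues express little of it, although some tumour lines do.

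The gene lies on the minus strand of chromosome 12, at chr12:54455950-54473602 in GRCh38 (GENCODE v44). The lncRNAs AC079313.2 and AC079313.1 overlap it on the other strand and reached at most 0.092 and 0.019 CPM (a gene's UMI counts scaled to a common library total). Promoters are shown for GTSF1 and for ASCC2 and LINC00221, whose levels resembled its own most closely. Each is the RefSeq sequence (GRCh38.p14) from 250 bases before to 50 after the start, on the gene's strand, with CG pairs in capitals.
GTSF1, chr12:54473553-54473852, minus strand: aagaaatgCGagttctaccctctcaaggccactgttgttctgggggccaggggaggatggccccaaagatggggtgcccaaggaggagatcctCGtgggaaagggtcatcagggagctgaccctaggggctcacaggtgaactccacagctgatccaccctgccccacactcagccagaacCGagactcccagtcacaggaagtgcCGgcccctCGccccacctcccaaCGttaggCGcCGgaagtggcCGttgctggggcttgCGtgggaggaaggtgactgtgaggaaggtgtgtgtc
ASCC2, chr22:29838225-29838524, minus strand: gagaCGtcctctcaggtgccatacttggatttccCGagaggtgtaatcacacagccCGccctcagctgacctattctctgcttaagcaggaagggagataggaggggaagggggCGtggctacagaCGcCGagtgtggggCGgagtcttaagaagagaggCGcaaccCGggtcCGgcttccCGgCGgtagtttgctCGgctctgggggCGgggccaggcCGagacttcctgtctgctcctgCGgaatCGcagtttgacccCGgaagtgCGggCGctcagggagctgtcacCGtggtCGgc
LINC00221, chr14:106482189-106482488, plus strand: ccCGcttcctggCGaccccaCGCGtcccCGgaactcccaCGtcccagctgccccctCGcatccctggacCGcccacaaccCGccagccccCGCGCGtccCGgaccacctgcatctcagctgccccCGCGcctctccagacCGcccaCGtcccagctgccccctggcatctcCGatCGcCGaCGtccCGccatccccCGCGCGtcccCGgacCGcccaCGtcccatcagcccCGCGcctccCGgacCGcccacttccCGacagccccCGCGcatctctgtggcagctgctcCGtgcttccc
The GTSF1 window held 10 CG pairs at 62.0% GC, fewer pairs than the median of 14 over 35116 promoters. ASCC2 had 22 and LINC00221 had 36. The letters CCGGAAGT, a motif of ETS-family factors, began 12 bases before the start in GTSF1 (position -12) and at position 9 in ASCC2. They were not in the LINC00221 window. On either strand they occurred in 4.14% of all promoters of this length, and a match describes the letters only.

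Between 2718 and 4677 cells per library passed the filters, with 52553686 to 58442223 unique molecular identifiers (UMIs, 1 per captured molecule) per library and a median of 10812 to 18739 per cell. Pairs of libraries shared 0 to 7 cell barcodes. The labels name the cells epithelial. VIM, a mesenchymal filament gene, stood at 2554 to 3784 CPM and KRT18, a simple-epithelial keratin gene, at 699 to 1266 CPM, while CDH1, which encodes E-cadherin, stayed at or under 0.428 CPM. The summed germ cell markers reached 4.81 to 9.34 CPM, most of it SOX17, and DDX4, DAZL, KIT and PRM1 were at 0 in every library. Summed leukocyte markers lay between 1.48 and 6.13 CPM and endothelial markers between 0.0759 and 0.445 CPM.

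GTSF1 was on in 5 libraries and all but absent from the sixth. It stood at 77.2 CPM in HaloTag 25R (95% Poisson interval 74.9 to 79.5, 4510 UMIs), 54.9 CPM in HaloTag 52R (53.0 to 56.9, 2958 UMIs) and 82.7 CPM in HaloTag 70R (80.3 to 85.2, 4494 UMIs). In the Dendra2 lines it stood at 65.5 CPM in 52R (63.3 to 67.7, 3441 UMIs) and 81.5 CPM in 70R (79.1 to 83.97, 4372 UMIs). Dendra2 25R held 1 GTSF1 UMI among 52730959, or 0.019 CPM (0.00048 to 0.106). These intervals cover counting error only, since each genotype had 1 library. The 5 other libraries kept within 1.51-fold of each other, and Dendra2 25R lay apart from all of them.

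In descending order the levels ran HaloTag 70R, Dendra2 70R, HaloTag 25R, Dendra2 52R, HaloTag 52R and Dendra2 25R. HaloTag 70R and Dendra2 70R did not differ beyond counting error, with a ratio of 1.02 (interval 0.974 to 1.06), and the intervals of Dendra2 70R and HaloTag 25R overlapped. Under trimmed-mean (TMM) scaling the first pair changed places, at 80.8 and 82.2 CPM. The 25R and 52R lines stood in opposite order under the 2 tags. HaloTag 25R exceeded HaloTag 52R 1.41-fold (1.34 to 1.47), whereas the ratio of Dendra2 25R to Dendra2 52R was 0.00029 (7e-06 to 0.00162), its inverse being 3453 (619 to 136410). The longest CTD went with more GTSF1 than 52R under both tags, 1.51-fold (1.44 to 1.58) with HaloTag and 1.24-fold (1.19 to 1.30) with Dendra2. These ratios cover all cells. Cells with over 2.3% of UMIs from genes within 10 Mb of GTSF1 are described further on. In them the levels were 79.6, 70.0 and 84.6 CPM in HaloTag 25R, 52R and 70R. They were 70.6 and 84.1 CPM in Dendra2 52R and 70R.

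**Figure D1:**
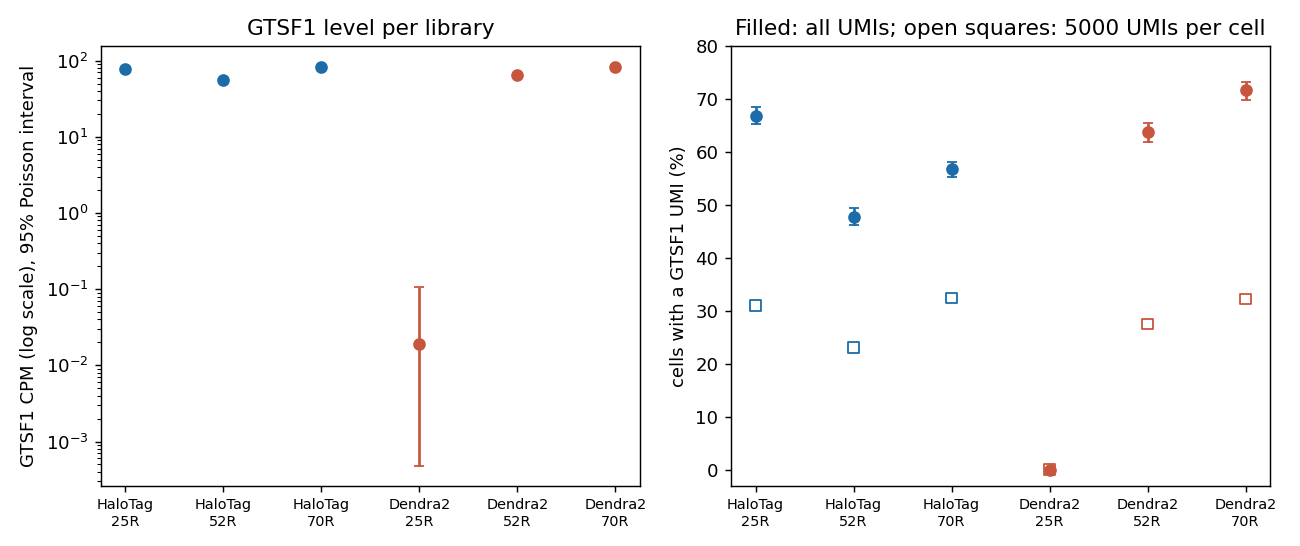
GTSF1 in the 6 libraries, HaloTag in blue and Dendra2 in red. The left axis gives CPM on a log scale with 95% Poisson intervals. The right axis gives the percent of cells with at least 1 GTSF1 UMI, with exact binomial intervals for all UMIs (filled) and the value with each cell thinned to 5000 UMIs (open). Dendra2 25R sits at 0.019 CPM and 0.032% of cells, apart from the other 5 libraries.

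A GTSF1 UMI was seen in 47.7 to 71.6% of cells in the 5 expressing libraries. A GTSF1 UMI was found in 66.9% of HaloTag 25R cells (exact binomial 95% interval 65.3 to 68.4%), 47.7% of HaloTag 52R cells (46.1 to 49.4%) and 56.7% of HaloTag 70R cells (55.3 to 58.2%). In Dendra2 52R the share was 63.7% (61.9 to 65.5%) and in Dendra2 70R 71.6% (69.9 to 73.3%). In Dendra2 25R, 1 of 3121 cells had one, or 0.032% (0.00081 to 0.178%), at a median of 15770 UMIs per cell. That cell had 22343 UMIs, and no other library held its barcode. With every cell thinned to 5000 UMIs, which left out 34 to 217 cells per library, the shares became 31.1%, 23.0% and 32.4% for HaloTag 25R, 52R and 70R and 0%, 27.5% and 32.2% for Dendra2 25R, 52R and 70R. Thinned to equal depth, HaloTag 52R was lowest of the 5 libraries that expressed the gene, as it was in CPM. Each library is 1 cell line, so it holds no cell type known to lack GTSF1 that would give the share due to free RNA. A UMI is therefore not read as expression by that cell. HaloTag 52R cells were also ordered by other genes of chromosome 12, as described further on. In the lowest of 5 groups the share with a GTSF1 UMI was 5.62%, at a median of 13544 UMIs. In cells with under 2.1% of UMIs from those genes it was 3.68%, at a median of 13575.5 UMIs.

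The share moved with depth. Of HaloTag 25R cells split by depth into 4 groups, in the shallowest (median 9872 UMIs) 49.5% had a GTSF1 UMI and in the deepest (24152 UMIs) 80.6%, with levels of 78.3 and 76.1 CPM. In HaloTag 70R the level also differed with depth, at 73.9, 79.8, 86.2 and 84.98 CPM from the shallowest group to the deepest, and in Dendra2 70R it was 76.4, 74.8, 87.0 and 82.9 CPM. Cells with a transcript held 1.67 to 2.25 GTSF1 UMIs on average in the 5 expressing libraries, and the most in any cell was 10. If every cell of a library had the same GTSF1 CPM, Poisson sampling at each cell's own depth would leave 30.7% of HaloTag 25R cells without a UMI, against 33.1% found. The same 2 values were 47.2% and 52.3% in HaloTag 52R, 41.3% and 43.3% in HaloTag 70R, 32.1% and 36.3% in Dendra2 52R, and 24.9% and 28.4% in Dendra2 70R. Cells without a UMI were more frequent than equal expression gives in each of the 5, with the widest gap in HaloTag 52R.

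**Figure D2:**
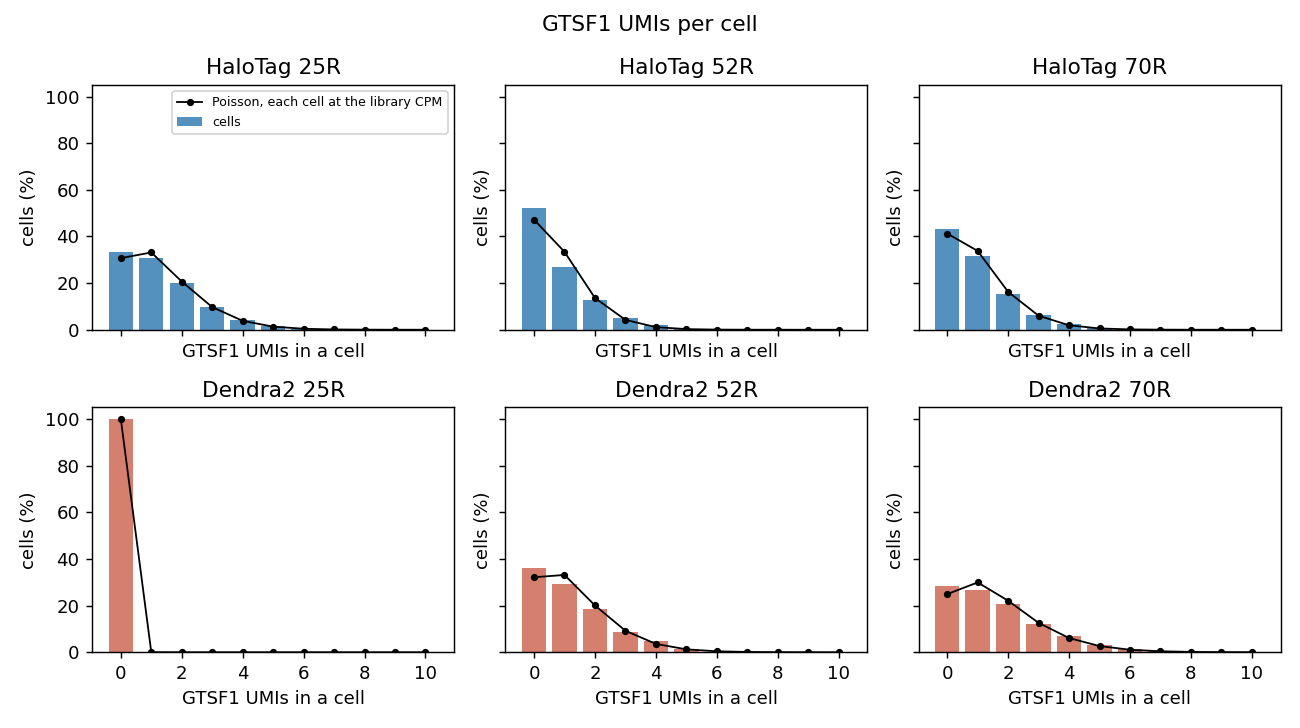
Percent of cells (vertical) by number of GTSF1 UMIs in the cell (horizontal), 1 panel per library. Bars are the cells found and black points the Poisson values if every cell had the library's CPM. In HaloTag 52R 52.3% of cells had none against 47.2% by Poisson, and in Dendra2 25R all cells but 1 were at 0.

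The authors' deposited tables give a beta-Poisson fit per gene, in which K stands for how often a gene fires, in its own unit, with a lower and an upper limit whose coverage is not stated. In the authors' deposited tables K of GTSF1 was 3.81 (3.14 to 4.71) in HaloTag 25R, 1.77 (1.49 to 2.13) in HaloTag 52R and 3.23 (2.70 to 3.998) in HaloTag 70R. For Dendra2 52R and 70R the authors' deposited tables give 2.78 (2.32 to 3.41) and 3.27 (2.75 to 3.94). HaloTag 52R lay below the limits of the other 4. Among 979 genes of a mean within 1.2-fold, 15.9% had a lower K there, against 28.2 to 74.5% in the other 4. In Dendra2 25R the authors' deposited table gives 0.049 with limits from 1.8e-05 to 208, so K was not determined there. The squared coefficient of variation in the authors' deposited tables was highest in HaloTag 52R among the 5, at 1.82 (1.71 to 1.94), and 0.924 to 1.35 in the others. The fitted means follow raw UMIs per cell and so carry each library's depth. GTSF1 also differed between groups of HaloTag 52R cells, as described further on. Over all cells its variance-to-mean ratio was 1.42 in HaloTag 52R and 1.29 to 1.47 in the other 4. In cells with at least 5000 UMIs and over 2.3% from genes within 10 Mb, it was 1.22, against 1.25 to 1.39. No K is given for those cells alone.

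Cells with the transcript had slightly more or slightly fewer such cells around them than other cells did. After thinning, the 15 nearest neighbours of a GTSF1-positive cell were GTSF1-positive 1.00 percentage points more often than those of other cells in HaloTag 52R, and 0.729 points more often in HaloTag 25R. In HaloTag 70R, Dendra2 52R and Dendra2 70R the difference was -0.115, -0.133 and -0.426 points. Cell cycle phases were called from S and G2/M gene scores. The S phase share of cells with GTSF1 minus that of cells without was -0.02 points on average (SD 1.77, n = 5 libraries, higher in 2, two-sided exact sign-flip permutation p = 0.938). For G2/M it was 1.34 points (SD 2.12, n = 5, higher in 4, exact permutation p = 0.25). The smallest p that 5 libraries allow is 0.0625, and 17.7 to 25.6% of cells lay within 0.05 of a phase boundary. Without thinning the G2/M difference was 9.11 points (higher in 5 of 5), and cells with a UMI are also the deeper ones.

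The neighbourhood of GTSF1 was also lower in Dendra2 25R, but by far less. Of the 42 genes within 500 kb, 19 reached 1 CPM in some library, and 15 of these were lowest in Dendra2 25R (of all genes with at least 5 CPM, 19.8% were). In Dendra2 25R 17 were below both Dendra2 52R and Dendra2 70R, where 40.8% of all genes with at least 5 CPM were. For all 19 the level there was 29.4 to 84.1% of that in Dendra2 52R. CBX5, which encodes the heterochromatin protein HP1α, stood at 261 CPM in HaloTag 25R, 191 in HaloTag 52R and 199 in HaloTag 70R. Its Dendra2 levels were 176, 209 and 189 CPM for 25R, 52R and 70R. SMUG1, a DNA glycosylase gene, went from 23.3 CPM in Dendra2 52R and 27.8 in Dendra2 70R to 10.9 in Dendra2 25R, and lay between 15.1 and 19.99 CPM with HaloTag. ITGA5, a fibronectin receptor subunit gene and the nearest expressed gene, read 9.67 CPM in Dendra2 25R, 12.1 in Dendra2 52R and 18.0 in Dendra2 70R. HOXC9, a homeobox gene of the HOXC cluster, read 31.5, 42.9 and 46.0 CPM in the same order. HNRNPA1, an RNA-binding protein gene, COPZ1, of the COPI vesicle coat, ZNF385A, HOTAIR, HOXC-AS1, HOXC-AS3, FAM242C, HOXC5, HOXC6, HOXC8 and HOXC10 were likewise lowest there. HOXC11 was lowest in Dendra2 70R, and HOXC4, LINC02381 and PPP1R1A in HaloTag 25R. None of the 19 approached the loss of GTSF1 itself. Within 500 kb, lower levels were not limited to Dendra2 25R. Of the 14 other genes within 500 kb and with at least 5 CPM, 13 were below both Dendra2 52R and 70R in Dendra2 25R, with median differences on log2(CPM + 1) of -0.54 and -0.58. In HaloTag 25R, where GTSF1 was on, 10 of the 14 were below both HaloTag 52R and 70R, with medians of -0.25 and -0.33. Of all 11270 genes with at least 5 CPM, 4991 were below both in HaloTag 25R. Of the 183 such genes within 10 Mb, 76 were, with medians of 0.01 and -0.04.

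The lower level ran along a long stretch of the chromosome. Of 183 other genes within 10 Mb of GTSF1 and with at least 5 CPM in a library, 158 (86.3%) were lowest in Dendra2 25R, where 19.8% of all 11270 such genes were. Their median difference on log2(CPM + 1) was -0.50 for Dendra2 25R minus 52R and -0.60 for 25R minus 70R. Over all genes these medians were -0.02 and -0.07, and over the 444 genes on the rest of chromosome 12 they were 0.02 and -0.08, with 18.2% lowest in Dendra2 25R. For HaloTag 25R minus 52R the median within 10 Mb was 0.01. The stretch was found in these values, so they are a description. In bins of 5 Mb the Dendra2 25R minus 52R median was -0.48 from 15 to 10 Mb before GTSF1 and -0.58 just after it. It was -0.37 from 5 to 10 Mb after, -0.23 from 10 to 15 Mb after and 0.02 in the next bin. The bins beyond 10 Mb belong to the rest of chromosome 12. Some of them were higher, at 0.26 to 0.48 between 40 and 25 Mb before GTSF1 and 0.32 from 30 to 40 Mb after. For 25R minus 70R the same bins read -0.23 to -0.13 and 0.14 to 0.17.

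The median gene of this stretch kept 68.7% of its Dendra2 52R level in Dendra2 25R. Among the 183, 24 fell under 50% and only KRT75, a keratin gene, under 10%. KRT75 read 34.6 CPM in Dendra2 52R, 1.67 in Dendra2 25R and 2.37 in Dendra2 70R, and with HaloTag 1.76, 25.0 and 26.6 CPM in 25R, 52R and 70R. Unlike GTSF1 it was thus also low in other libraries.

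**Figure D3:**
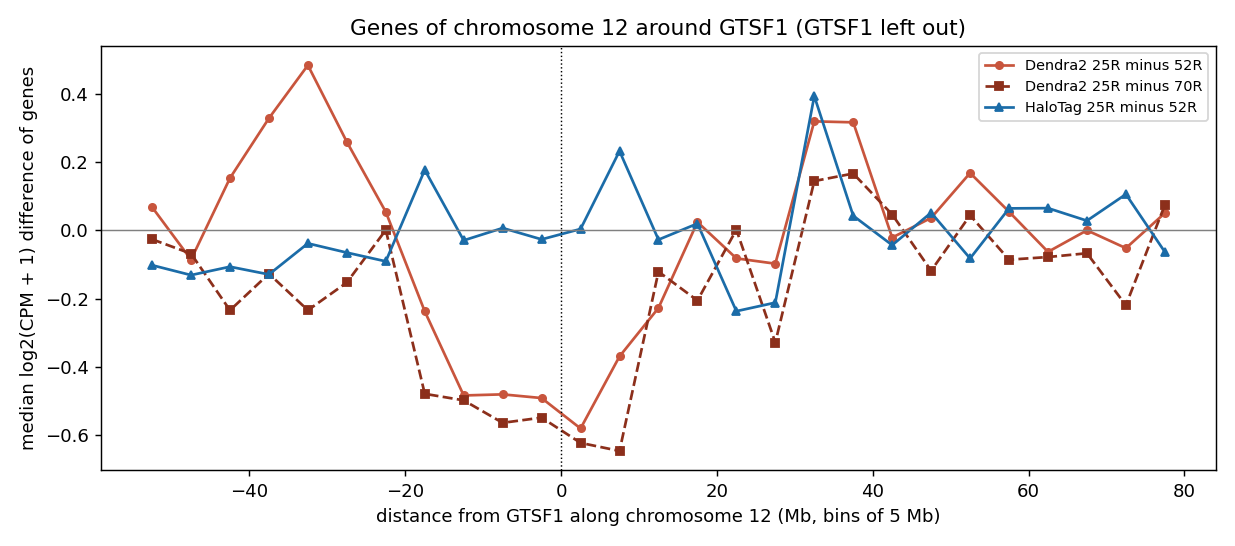
Median difference in log2(CPM + 1) of genes in 5 Mb bins (vertical) against distance from GTSF1 on chromosome 12 (horizontal), for Dendra2 25R minus 52R, Dendra2 25R minus 70R and HaloTag 25R minus 52R. Both Dendra2 lines dip around GTSF1, to -0.58 and -0.65 at the lowest, where the HaloTag line lies between -0.03 and 0.23. Elsewhere Dendra2 25R minus 52R rises to 0.48, from 35 to 30 Mb before GTSF1.

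Single cells of the other libraries were then examined for the same stretch. In cells with at least 5000 UMIs, the genes within 10 Mb, without GTSF1, gave a median of 2.00% of UMIs in Dendra2 25R. The medians were 2.76%, 2.67% and 2.84% in HaloTag 25R, 52R and 70R and 2.97% and 2.85% in Dendra2 52R and 70R. The rest of chromosome 12 gave 3.34 to 3.53% in all 6. HaloTag 52R held a second group of cells whose share lay around that of Dendra2 25R, and Dendra2 52R held a smaller one. Below 2.3% of UMIs, a value chosen after the shares were seen, lay 25.5% of HaloTag 52R cells (930 of 3644) and 8.37% of Dendra2 52R cells (227 of 2713). The share was 8.53% in HaloTag 25R, 5.83% in HaloTag 70R, 5.597% in Dendra2 70R and 91.0% in Dendra2 25R. Within 0.1 points of the limit lay 2.32 to 12.4% of cells, so these are ranges of a share and not types of cell.

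GTSF1 was low in the cells below that share in all 5 expressing libraries, and most of all with 52R. It stood at 11.1 CPM below (95% Poisson interval 9.41 to 13.0) and 70.0 CPM above (67.4 to 72.6) in HaloTag 52R, a ratio of 0.159 (0.134 to 0.187). In Dendra2 52R it stood at 6.28 CPM (4.10 to 9.20) and 70.6 CPM (68.3 to 73.0), a ratio of 0.0890 (0.0580 to 0.131). In Dendra2 70R it was 29.5 CPM below and 84.1 above, in HaloTag 25R 47.1 and 79.6, and in HaloTag 70R 47.5 and 84.6. Above 2.3% the 2 lines with 52R stood at 70.0 and 70.6 CPM, closer together than the 54.9 and 65.5 CPM of all their cells. In Dendra2 25R the 271 cells above 2.3% held no GTSF1 UMI, with an upper 95% Poisson limit of 0.848 CPM.

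Depth and mitochondrial counts moved with this split to differing degrees. In HaloTag 52R the cells below had a median of 13542.5 UMIs and 9.68% mitochondrial counts, and those above 13686.5 and 8.59%. In HaloTag 70R, where GTSF1 differed less, the same values were 8889 and 12.3% against 11182.5 and 8.80%. In cells of at least 10000 UMIs the ratio was 0.142 in HaloTag 52R and 0.0798 in Dendra2 52R. The mitochondrial medians still differed there, at 9.60% below and 8.53% above in HaloTag 52R, and their part in the GTSF1 difference was not tested.

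The cells of each library were also ordered by the share and divided into 5 equal groups. The lowest group held less GTSF1 than the other 4 together in 5 of 5 expressing libraries. It read 5.15 CPM in HaloTag 52R, and the others 48.6, 71.8, 73.1 and 76.2. In Dendra2 52R the groups read 36.5, 67.2, 70.2, 75.1 and 78.4 CPM. The mean difference on log2(CPM + 1) was -1.13 (SD 1.33, n = 5), between -3.48 and -0.37. Ordering the same cells by the rest of chromosome 12 gave -0.17 (SD 0.0789), also lower in 5 of 5.

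**Figure D4:**
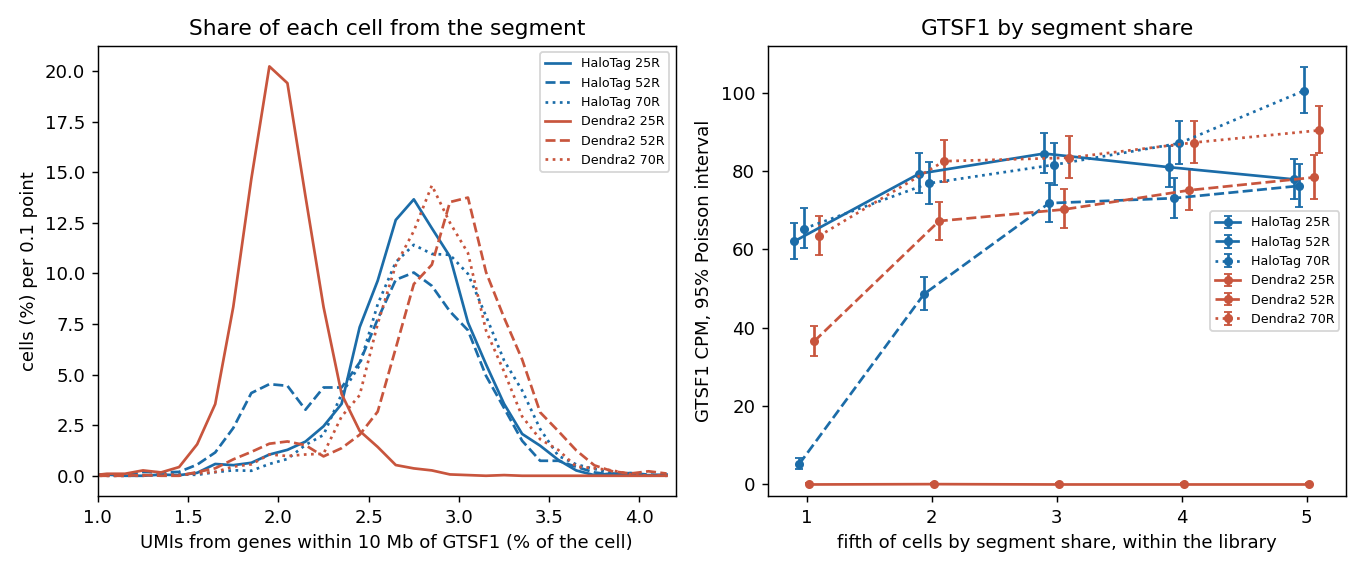
Left, distribution of cells (percent per 0.1 points) over the percent of their UMIs from genes within 10 Mb of GTSF1. Right, GTSF1 CPM with 95% Poisson intervals in 5 equal groups of cells ordered by that percent within each library. Dendra2 25R peaks near 2%, HaloTag 52R has a second hump there, and its lowest group holds 5.15 CPM of GTSF1.

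Cells with and without a GTSF1 UMI were compared across all other genes in the 5 expressing libraries, on counts summed per library after thinning to 5000 UMIs. With library as a block, edgeR's quasi-likelihood test called 87 of 13635 genes (0.638%) at a Benjamini-Hochberg adjusted p under 0.05, 68 higher and 19 lower in cells with GTSF1. The share called higher was 0.499% of all genes and 5.61% (12 of 214) of the genes within 10 Mb of GTSF1. The 12 were the tubulin genes TUBA1B and TUBA1C, the keratin genes KRT81 and KRT18, MYL6 (myosin light chain), the ribosomal genes RPL41 and RPS26, the ATP synthase genes ATP5F1B and ATP5MC2, PTGES3, NACA and PCBP2. TUBA1B rose from 1697 to 1831 CPM, by 0.11 on the log2 scale (SE 0.0126, edgeR adjusted p = 1.05e-10, higher in 5 of 5 libraries). MYL6 rose from 714 to 777 CPM, by 0.12 (SE 0.0183, edgeR adjusted p = 1.26e-06, 5 of 5). These are changes of a few percent. All 12 were abundant, from 261 CPM (ATP5F1B) to 8220 CPM (RPL41) in cells with GTSF1. Small changes are called more readily in such genes, and the 2 shares were not matched for expression level. Without HaloTag 52R, 24 genes (0.176%) were called higher, and 3 (1.39%) of those within 10 Mb.

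Among the 19 genes lower in cells with GTSF1 (0.139% of those tested) were 10 of 13 mitochondrially encoded genes and the nuclear RNAs MALAT1 and NEAT1. MT-ND2 fell by 0.11 on the log2 scale (SE 0.0118, edgeR adjusted p = 9.7e-12, lower in 5 of 5 libraries) and MALAT1 by 0.09. Genes outside the stretch that rose included the metallothionein MT2A, the actin regulators CFL1 and TMSB4X, and PTMA. The part of cell quality in these differences was not tested.

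Transcripts of most other piRNA pathway genes stayed under 1 CPM, whether GTSF1 was on or off. Of 36 pathway genes measured, 12 reached 1 CPM in some library, GTSF1 among them, and DDX4 and TDRD9 were at 0 in all 6. The PIWI genes, which encode the Argonaute-family effectors, were near the floor. PIWIL1 read 0.120 to 0.184 CPM, PIWIL3 at most 0.037 and PIWIL4 at most 0.093. PIWIL2 read 1.66 CPM in HaloTag 25R (97 UMIs) and 0.130 to 0.276 CPM in the other 5. DNMT3L, the germ-line cofactor of DNA methylation, read at most 0.0743 CPM. GTSF1L, the closest paralog, had 3 UMIs in HaloTag 25R, 1 in HaloTag 52R and 0 elsewhere. GTSF1 was thus measured at high levels beside PIWI genes of 1.66 CPM or less.

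Apart from GTSF1, the best expressed members were HENMT1, PRMT5, WDR77 and MYBL1. HENMT1, the methyltransferase of small RNA 3′ ends, read 19.8 to 32.6 CPM, and the methylosome genes PRMT5 and WDR77 read 26.8 to 36.1 and 29.5 to 44.1 CPM. MYBL1, a transcription factor of meiotic genes, read 16.9 to 25.7 CPM. The Tudor genes TDRD5, TDRD7 and TDRKH and the kinase-like STK31 read 1.42 to 6.84 CPM over all libraries. MOV10L1, the piRNA helicase, read 1.21, 1.04 and 2.17 CPM with HaloTag and 0.228, 0.818 and 0.354 with Dendra2 25R, 52R and 70R. TDRD15 was at 0 UMIs in HaloTag 70R, at 0.265 CPM in Dendra2 25R and at 1.86 to 2.86 CPM in the other 4. Of the 12, only GTSF1 and TDRD15 were under 0.1 CPM in a library, and in different libraries. Of the CHHC zinc finger family, SNRNP48, a minor spliceosome protein, read 17.8 to 25.6 CPM and TRMT13, a tRNA methyltransferase, 13.98 to 19.1 CPM.

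Across tags and CTD lengths, edgeR's quasi-likelihood test of the additive model called 0 of the 14 pathway members tested (GTSF1 was not counted) in any comparison. Over all 18761 genes it called 0.267% between tags (0.112% higher and 0.155% lower with HaloTag), 0.0426% for 25R against 52R (0.0213% higher and 0.0213% lower), and 0% for 70R against 52R or 25R. At an unadjusted p under 0.05 the pathway counts were 5, 2, 0 and 1 in that order, where 19.5, 13, 4.65 and 12.4% of all genes passed. DESeq2 called 1 member lower with HaloTag and none in the rest, where it called 6.17, 2.73, 0.357 and 2.43% of all genes. The same shares stand behind the counts of the next lists. The median log2 difference of the members was 0.28 with HaloTag, beside 0.03 for all genes. For 25R against 52R it was 0.12 beside 0.01. With 2 residual degrees of freedom, a member not called is not shown to be alike between lines. DNA methylation and somatic transposon-silencing genes likewise had 0 of 32 called by edgeR in each comparison (7, 3, 3 and 7 at an unadjusted p under 0.05; DESeq2 called 3, 1, 0 and 1). DNMT1, the maintenance methyltransferase, read 137 CPM in Dendra2 25R and 98.9 to 190 in the other libraries.

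Of 42 germ-line genes 6 reached 10 CPM, and none of the 6 was lowest in Dendra2 25R. Of all genes with at least 5 CPM, 19.8% were, so a count of 0 among 6 says little. By tag and CTD length edgeR called 0 of 22 tested in each comparison. At an unadjusted p under 0.05 the counts were 3, 1, 0 and 0, where 19.5, 13, 4.65 and 12.4% of all genes passed. DESeq2 called 1, 0, 0 and 0, beside 6.17, 2.73, 0.357 and 2.43% of all genes. PRAME read 157 CPM in Dendra2 25R, 101.3 and 94.1 in Dendra2 52R and 70R and 235 to 272 with HaloTag. PAGE2 read 489 CPM in Dendra2 25R, 309 in Dendra2 52R and 223 in Dendra2 70R, and 214, 541 and 539.8 with HaloTag in the same order. CTAG2, a cancer-testis antigen gene, ran the other way from GTSF1, with 148 CPM in Dendra2 25R and 1.10 to 35.2 CPM in the other 5. DDX43, a germ-line helicase gene, SYCE1, of the synaptonemal complex, and LIN28B, a regulator of let-7, ranged from 6.30 to 21.4 CPM and were highest in other libraries.

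Few genes shared the pattern. Among 443 genes with at least 5 CPM in a library and a range of at least 2 on log2(CPM + 1), ASCC2 had the highest Pearson r with GTSF1 over the 6 libraries, 0.998, followed by LINC00221 (0.995), TNFAIP2 (0.966), NUDT14 (0.924), VAMP8 (0.914), CARD16 (0.876), SLC39A4 (0.862) and SMPDL3B (0.860). ASCC2, a subunit of the ASC-1 complex that works in alkylation repair and ribosome rescue, read 6.39 to 7.53 CPM in the 5 libraries and 0.057 CPM (3 UMIs) in Dendra2 25R. LINC00221 read 19.9 to 27.2 CPM and 0.398 CPM (21 UMIs). TNFAIP2 read 6.12 to 10.3 CPM and 0.303 CPM (16 UMIs). VAMP8, a vesicle SNARE gene, read 11.5 to 26.8 CPM and 2.54 CPM. With Dendra2 25R left out, 0 of the 8 stayed among the 8 most alike, so the likeness rests on that library.

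**Figure D5:**
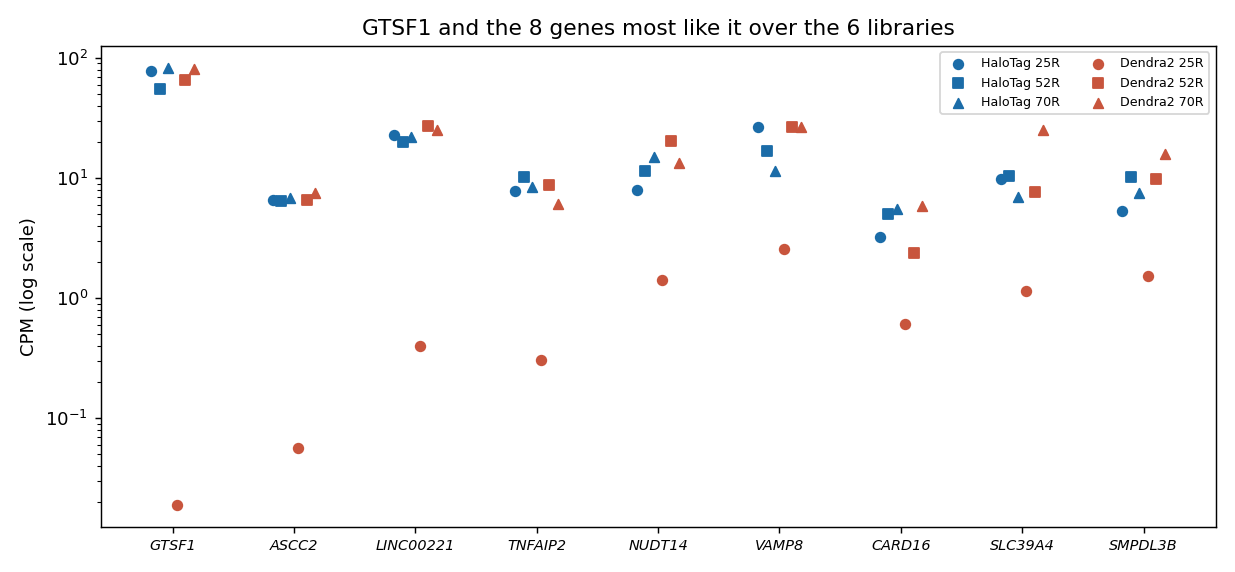
CPM on a log scale of GTSF1 and the 8 genes with the highest Pearson r with it over 6 libraries, HaloTag in blue and Dendra2 in red, with circles, squares and triangles for 25R, 52R and 70R. In all 9 genes Dendra2 25R is lowest, and only for GTSF1 and ASCC2 is it under 0.1 CPM.

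The like genes lay on other chromosomes, and their surroundings differed. LINC00221, TNFAIP2 and NUDT14 lie near each other on chromosome 14, where the median gene within 2 Mb was lower by 0.85 to 0.96 on the log2 scale in Dendra2 25R than in 52R and by 0.52 to 0.54 in HaloTag 25R than in 52R. Around ASCC2 on chromosome 22, 46 neighbours had a median difference of 0.01 for Dendra2 25R minus 52R and -0.24 for 25R minus 70R. In HaloTag 52R cells of the lowest of the 5 groups by chromosome 12 share, ASCC2 read 5.88 CPM against 6.48 in other cells, a ratio of 0.909 (0.681 to 1.196), where GTSF1 had 0.0763 (0.0575 to 0.0994). The ratios of VAMP8, CARD16 and SMPDL3B also had intervals that include 1. Those of SLC39A4 at 0.618 (0.478 to 0.788), LINC00221 at 0.654 (0.547 to 0.777), NUDT14 at 0.688 (0.545 to 0.860) and TNFAIP2 at 0.717 (0.562 to 0.906) did not. All 8 lay above the GTSF1 interval in HaloTag 52R. These lower ratios were not seen in Dendra2 52R. There SLC39A4 had 1.34 (1.06 to 1.69), LINC00221 0.963 (0.840 to 1.10), NUDT14 1.02 (0.873 to 1.19) and TNFAIP2 1.15 (0.915 to 1.44). VAMP8 had 0.733 (0.630 to 0.850) in Dendra2 52R, and GTSF1 0.504 (0.451 to 0.561).

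Being on in 5 libraries and off in 1 was rare among the better expressed genes. Of 7623 genes with at least 10 CPM in the second-lowest library, GTSF1 and LINC00221 were under 1 in 20 of that level in Dendra2 25R, MAGEA10 was in HaloTag 25R, and no gene was in HaloTag 52R, HaloTag 70R, Dendra2 52R or Dendra2 70R. This count was made after the values were seen. Its limit of 10 CPM left out ASCC2 and TNFAIP2, whose second-lowest levels were 6.39 and 6.12 CPM. In Dendra2 25R they read 0.057 and 0.303 CPM.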

How the data were processed

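RNA of single U2OS cells was captured with 10x 3′ chemistry. The deposited matrices hold UMI counts per gene and cell from Cell Ranger 6.1.2, per the file headers, with bcl2fastq and GRCh38 named in the submitters' processing notes. The labels list 9 samples, and the authors merged the 2 runs of each HaloTag library, giving 6 libraries. The authors' deposited kinetic tables hold the mean, K and squared coefficient of variation of a beta-Poisson fit, each with limits; no source used here names the fitting software.

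Barcodes with under 500 genes or over 20% mitochondrial counts were dropped (2.01 to 3.03% per library). No doublet caller was run. CPM is a gene's count over the library total, with exact Poisson intervals. Shares of cells have exact Clopper-Pearson intervals, both at 95%. Differences in level are on log2(CPM + 1). The additive model of tag and CTD length used edgeR 4.0.16 (R 4.3.3) quasi-likelihood tests on summed counts, filterByExpr, TMM and Benjamini-Hochberg adjustment over all genes, with DESeq2 1.42.0 as an alternative. Cells with and without a GTSF1 UMI were compared by the same test with library as a block, a comparison added after the data were seen. Both models were checked on simulated data. There the additive model found most of the larger effects of CTD length and a minority of the smaller ones. A count of 0 therefore does not show that differences are absent. Changes were placed only in well-counted genes, so recovery of list members with few UMIs was not measured. Phases and neighbours used scanpy 1.11.5, and exact tests scipy 1.17.1. Gene positions came from GENCODE v44, which matched 36366 of 36601 IDs.

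Named genes were GTSF1, list members and genes within 500 kb with at least 1 CPM in a library, germ-line genes with at least 10 CPM, and the 8 genes of highest Pearson r. Other genes named were chosen after their values were seen. Members and lists were chosen with earlier results of these data known. Replicate numbers in the labels are sequencing runs, so each genotype has 1 library. The p-values for tag and CTD length measure only the spread among libraries under the additive model. Those for phases and for cells with and without a GTSF1 UMI measure the spread of within-library differences over 5 libraries.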

Additional observations from a re-analysis of the deposited data

Results flagged for a closer look

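GTSF1 in 25R relative to 52R moved in opposite directions under the 2 tags. The ratio was 1.41 with HaloTag and 0.00029 with Dendra2. Each ratio compares 1 library with 1 library over all cells, and the difference between the tags was not tested. In cells with over 2.3% of UMIs from genes within 10 Mb of GTSF1, the HaloTag levels lay closer together. They were 79.6 CPM in 25R and 70.0 CPM in 52R. With Dendra2 such cells read 0 CPM in 25R and 70.6 CPM in 52R.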

How the results depend on the processing

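GTSF1 stayed near 0 in Dendra2 25R and on in the other 5 libraries under every scaling and cell filter run. Its level left the counting interval in 4 of 30 alternatives. In HaloTag 52R it read 59.2 CPM with at most 10% mitochondrial counts, 52.1 CPM with TMM-scaled totals and 51.5 CPM with DESeq2 size factors, and in HaloTag 70R 87.5 CPM with at most 10% mitochondrial counts. The share of cells depends on depth and on the limit. For HaloTag 25R, 52R and 70R and Dendra2 25R, 52R and 70R in that order it was 36.1, 20.7, 25.0, 0, 34.6 and 45.0% at 2 or more UMIs and 31.1, 23.0, 32.4, 0, 27.5 and 32.2% thinned to 5000 UMIs. Thinned to 10000 UMIs it was 52.6% in HaloTag 25R, 39.3% in HaloTag 52R, 45.7% in Dendra2 52R and 55.0% in Dendra2 70R, and over all barcodes of HaloTag 25R 65.0%.

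Counts of genes called for tag, 25R against 52R, 70R against 52R and 70R against 25R were 50, 8, 0 and 0 by edgeR (3650, 2433, 873 and 2331 at an unadjusted p under 0.05). They were 1158, 512, 67 and 455 by DESeq2, and 327, 104, 2 and 50 with no filter on low counts. Leaving out 1 library gave 0 to 152, 0 to 782, 0 to 3 and 0 to 746 in the same order. The highest came without Dendra2 25R for tag, 25R against 52R and 70R against 25R, and the tag count was 0 without HaloTag 52R (2197 unadjusted) or Dendra2 52R (2200 unadjusted), as was that of 25R against 52R (1077 and 1147). The tag split was 21 higher and 29 lower, and 41 and 30 with library totals. The causes were not tested. Of the 8 genes most like GTSF1, 2 remained by Spearman rho and 4 at a minimum of 20 CPM. Leaving out 1 library kept 0 to 7, with 0 without Dendra2 25R and 5 without HaloTag 25R or Dendra2 70R.

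Alternatives for the comparison of cells with and without GTSF1 and for the chromosome 12 share were chosen after seeing the data. The former called 149 genes higher at 10000 UMIs and 24 to 75 without 1 library, the fewest without HaloTag 52R. The ratio of GTSF1 in cells of low share was 0.0464 in HaloTag 52R and 0.0525 in Dendra2 52R at 2.1% and 0.292 and 0.199 at 2.5%, and stayed below 1 in all 5 libraries. No paired analysis was possible because the replicate numbers in the labels are sequencing runs of 1 library that the authors merged, and the blocks by library use no such number.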
